A study of Mus musculus with 6 samples.

Results

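Satellite cell and Notch markers were followed in mouse soleus after denervation. The set holds 10 genes chosen by symbol, of 21572 symbols listed, and all 10 were found. Pax7, Cdh15, Vcam1, Chodl and Calcr mark satellite cells, Notch1 and Notch3 are Notch receptors, Hey1 and Heyl are Notch targets, and Tmem8c encodes the fusion protein myomaker, which RefSeq lists as Mymk. RNA sequencing of polyadenylated RNA from adult C57BL/6 soleus covered 3 groups of 2 libraries. The first group was soleus denervated for 3 days from mice labelled Dach2-/-/Hdac9-/- (DKO). The second was wild-type (WT) soleus denervated for 3 days, and the third was innervated WT soleus. There was no innervated DKO muscle, so the genotypes can be compared in denervated muscle only. The labels name neither the form of the deleted alleles nor any pooling of animals, and do not say that the 2 libraries of a group came from separate animals. Each p-value is thus set against library spread, part or all of which may be technical.

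Satellite cells are the resident stem cells of skeletal muscle and lie between the fibre membrane and its basal lamina. Notch signalling helps to keep them quiescent. A ligand on a neighbouring cell triggers cleavage of the receptor, and its intracellular part joins the DNA-binding protein RBPJ in the nucleus and switches on genes of the Hes and Hey families. Once activated, the cells become myoblasts, which stop dividing, fuse with each other or with fibres, and need myomaker in their membrane to do so. Several of these genes are also active outside the satellite cell, Notch1 in endothelium and Notch3 and Heyl in the mural cells that wrap small vessels.

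Totals were 25529434 to 46305449 fragments per library. The genes named in the DKO label gave no clear check of it. Dach2 had 237 and 162 fragments in DKO-labelled muscle, against 178 and 121 in denervated WT muscle. Hdac9 had 121 and 39 fragments in DKO-labelled muscle, against 597 and 60 in denervated WT muscle. Neither passed the test between those groups (adjusted p = 0.727 and 0.918), and innervated WT muscle had 699 to 851 fragments of Dach2 and 442 to 765 of Hdac9. The labels do not say which exons the alleles lack, and fragments outside a deleted part check nothing. Every direction below that involves the genotype is therefore one between libraries labelled DKO and libraries labelled WT. Of the defining markers of fibre, Ckm, Mb, Myh7 and Myl2 were read in every library, whereas Acta1 and the satellite cell factor Pax3 were listed at 0 in all 6 libraries. An exact 0 in these tables may be a failed estimate.

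The promoters of 3 members are shown because they belong to satellite cell genes of both directions: Cdh15, which rose after denervation in WT muscle, Chodl, which fell, and Pax7, which was lower in both denervated WT libraries but did not pass the test. Each run is the 250 bases before the annotated start, from RefSeq on GRCm38.p6, written 5′ to 3′ on the gene's strand. Capitals mark matches to CANNTG, the E-box that basic helix-loop-helix factors such as Myod1 can bind. Cdh15 is on the plus strand at chr8:122848124-122848373, Chodl on the plus strand at chr16:78930698-78930947, and Pax7 on the minus strand at chr4:139832969-139833218.
Cdh15: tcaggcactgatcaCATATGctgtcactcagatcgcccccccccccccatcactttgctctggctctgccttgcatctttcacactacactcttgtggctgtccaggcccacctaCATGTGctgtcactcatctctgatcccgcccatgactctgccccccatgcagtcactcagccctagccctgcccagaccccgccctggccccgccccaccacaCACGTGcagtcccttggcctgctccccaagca
Chodl: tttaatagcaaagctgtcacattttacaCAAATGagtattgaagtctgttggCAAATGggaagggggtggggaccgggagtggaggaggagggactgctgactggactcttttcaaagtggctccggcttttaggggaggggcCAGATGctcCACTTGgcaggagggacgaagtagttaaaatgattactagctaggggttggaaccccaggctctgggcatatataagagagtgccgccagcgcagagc
Pax7: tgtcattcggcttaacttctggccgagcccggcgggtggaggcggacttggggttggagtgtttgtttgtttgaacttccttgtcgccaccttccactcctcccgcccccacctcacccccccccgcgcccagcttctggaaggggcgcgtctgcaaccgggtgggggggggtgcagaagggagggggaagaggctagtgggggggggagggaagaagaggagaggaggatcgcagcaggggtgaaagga

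The Cdh15 promoter held 3 E-boxes, the Chodl promoter held 4, and the Pax7 promoter held 0. The same letters stood in 66.2% of 32851 RefSeq promoter windows of this length, with 3 or more matches in 12.2% and 4 or more in 3.84%. The RBPJ core GTGGGAA, searched on both strands like the E-box, stood in 5.42% of windows. It stood in none of the windows of the 6 members found in the table, which besides these 3 are Calcr, Notch1 and Notch3, and so it overlapped no E-box. Calcr has 2 annotated starts, of which 1 window held an E-box. The first transcribed bases of the Notch3 entry were not found in GENCODE transcripts, so its start is less sure. Heyl, Hey1, Vcam1 and Tmem8c were not matched. A match describes letters in the window and not a bound site.

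Across members, levels are compared as FPKM (fragments scaled by transcript length and by library). In innervated WT muscle the order by mean level was Cdh15 at 7.42 ± 0.596, Notch3 at 6.93 ± 0.722, Chodl at 4.56 ± 0.961, Hey1 at 3.6 ± 0.418, Heyl at 2.87 ± 0.0626, Notch1 at 2.49 ± 0.807, Tmem8c at 2.45 ± 3.14, Vcam1 at 1.63 ± 0.288, Pax7 at 0.716 ± 0.124 and Calcr at 0.182 ± 0.00251 FPKM (SD, n = 2). Cdh15 and Notch3 overlapped in this order, as did Chodl and Hey1, and Heyl and Notch1. The pair of Tmem8c libraries was so far apart that it overlapped every member except Cdh15, Notch3 and Calcr. Vcam1, Pax7 and Calcr otherwise followed each other with no overlap. In denervated WT muscle Tmem8c had moved to the top at 50.3 ± 30.5 FPKM, ahead of Cdh15 at 13.1 ± 2.09 FPKM (SD, n = 2), with no overlap between them. In DKO-labelled denervated muscle Tmem8c averaged 22 ± 9.13 and Cdh15 19.6 ± 2.51 FPKM (SD, n = 2), and these 2 genes overlapped. The plot of FPKM in each library shows these levels gene by gene.

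**Figure D1:**
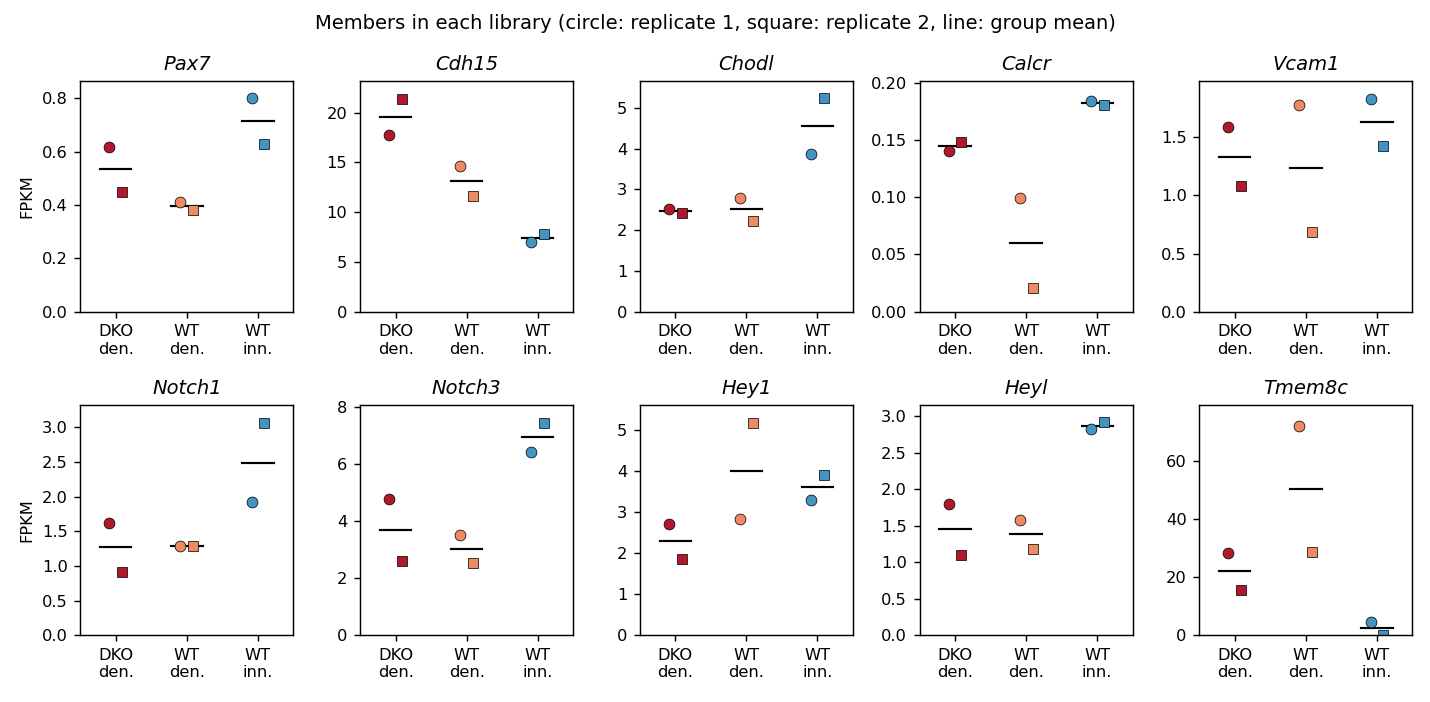
FPKM (vertical axes, each starting at 0) of the 10 members in each of the 6 libraries, with DKO-labelled denervated, WT denervated and WT innervated soleus from left to right; circles are replicate 1, squares replicate 2 and lines group means of 2 libraries. Cdh15 stands higher and Chodl, Heyl and Notch3 lower in denervated WT than in innervated WT libraries, and Tmem8c lies between 28.8 and 71.9 FPKM in denervated WT muscle against 0.227 and 4.67 FPKM in innervated WT muscle.

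Among the 9 tested members, 5 differed between denervated and innervated WT muscle by edgeR's quasi-likelihood test at an adjusted p under 0.05, which 28.7% of the 12247 tested genes also passed. Cdh15 and Tmem8c were higher, as were 14.4% of all tested genes, and Chodl, Heyl and Notch3 were lower, as were 14.3% of all tested genes. Between DKO-labelled and WT denervated muscle 0 of 9 members passed the test, against 0.0408% of all tested genes (0.0245% higher and 0.0163% lower). There 1 member, Cdh15, had an unadjusted p under 0.05, as did 748 of all tested genes, and DESeq2 and limma also called 0 members. Calcr, at a mean of 0.129 FPKM, fell below the filter of a mean of 0.5 FPKM over all 6 libraries. Pax7 was just inside it at 0.549 FPKM. The RNA comes from whole muscle, so fewer cells of a type and less RNA per cell cannot be told apart.

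**Figure D2:**
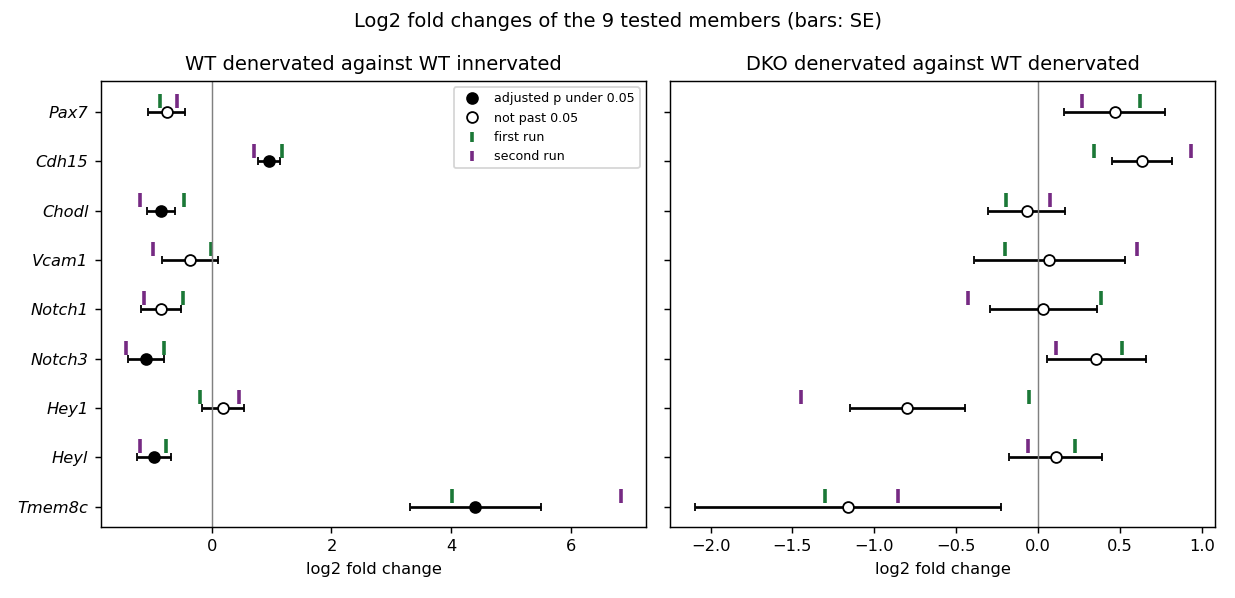
Log2 fold change of the 9 tested members (points, with bars of 1 SE) for WT denervated over WT innervated (left) and DKO-labelled denervated over WT denervated muscle (right); filled points passed an adjusted p of 0.05, and green and purple ticks are the differences within the first and the second run of consecutive sample numbers. In the left panel Tmem8c stands far right at 4.41 and Cdh15 at 0.95, with Notch3 at -1.10, and no point in the right panel is filled.

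Pax7 encodes the paired-box factor that defines satellite cells. It read 0.619 and 0.450 FPKM in DKO-labelled denervated muscle, 0.410 and 0.383 in denervated WT soleus, and 0.803 and 0.628 in innervated WT muscle. Denervated WT libraries were all below innervated ones, and DKO-labelled libraries lay above denervated WT. Neither difference passed: the log2 change was -0.76 ± 0.311 (SE) for denervated over innervated WT (edgeR adjusted p = 0.111) and 0.47 ± 0.309 for DKO-labelled over WT, both denervated (adjusted p = 0.968). These levels rest on few fragments, 135 and 93 in DKO-labelled, 121 and 73 in denervated WT and 129 and 76 in innervated WT libraries. The gene spans chr4:139293996-139388883 on mm9.

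Cdh15 encodes M-cadherin, which joins satellite cells to the fibre and is made in myoblasts too. It read 17.8 and 21.3 FPKM in DKO-labelled denervated muscle, 14.6 and 11.7 in denervated WT soleus, and 7.0 and 7.84 in innervated WT muscle. The 3 groups did not overlap. Cdh15 was 1.93-fold higher in denervated than in innervated WT muscle (log2 0.95 ± 0.184 SE, edgeR adjusted p = 0.0143). It was 3.00-fold higher in DKO-labelled denervated than in innervated WT muscle (log2 1.59 ± 0.186, adjusted p = 0.00302). Between DKO-labelled and WT denervated muscle the log2 difference was 0.64 ± 0.181 (edgeR adjusted p = 0.539). Cdh15, at chr8:125372274-125391297 on mm9, was the member with the smallest p in that comparison. Its call between denervated and innervated WT muscle was lost without either innervated library (adjusted p = 0.116 and 0.0962).

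The ratio of Cdh15 to Pax7, chosen after the values were seen and given with no test, showed how far these satellite cell genes moved apart. On the FPKM scale it was 28.7 and 47.5 in DKO-labelled denervated muscle, 35.7 and 30.5 in denervated WT soleus, and 8.71 and 12.5 in innervated WT muscle. All 4 denervated libraries stood above both innervated ones, and the genotypes overlapped.

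Vcam1, an adhesion molecule of quiescent satellite cells that endothelium also makes, read 1.58 and 1.08 FPKM in DKO-labelled denervated muscle, 1.78 and 0.688 in denervated WT soleus, and 1.83 and 1.42 in innervated WT muscle. The groups overlapped, and the 2 denervated WT libraries lay further apart than any pair of group means. The log2 change was -0.36 ± 0.463 (SE) for denervated over innervated WT (edgeR adjusted p = 0.576). Without denervated WT replicate 1 it was -1.22 (adjusted p = 0.0384), and without replicate 2 it was 0.15 (adjusted p = 0.765), so the direction rested on 1 library. Vcam1 spans chr3:115812938-115832606 on mm9.

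Chodl encodes chondrolectin, a membrane lectin whose RNA is found in quiescent satellite cells. It read 2.52 and 2.42 FPKM in DKO-labelled denervated muscle, 2.79 and 2.23 in denervated WT soleus, and 3.88 and 5.24 in innervated WT muscle. All denervated libraries lay below both innervated ones, and the genotypes overlapped. Denervated WT muscle had a log2 change of -0.85 ± 0.235 (SE) against innervated WT muscle, a 1.8-fold lower level (edgeR adjusted p = 0.0393). DKO-labelled denervated muscle had -0.92 ± 0.236 against innervated WT muscle (adjusted p = 0.0295) and -0.07 ± 0.234 against denervated WT muscle (adjusted p = 0.995). The call between denervated and innervated WT muscle held in 10 of 17 alternatives, and of the 6 fits that left out a library only the one without denervated WT replicate 1 kept it. Chodl spans chr16:78931193-78951973 on mm9.

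Calcr, the calcitonin receptor of quiescent satellite cells, was near the limit of these libraries. It had 22 and 22 fragments in DKO-labelled denervated muscle, 22 and 3 in denervated WT soleus, and 23 and 17 in innervated WT muscle. The low value was 1 denervated WT library, whose count of 3 has an exact Poisson 95% interval of 0.619 to 8.77, against 13.8 to 33.3 for a count of 22. These intervals cover counting error only. With no filter on low genes, edgeR gave a log2 change of -1.41 for denervated over innervated WT (adjusted p = 0.155) and 1.16 for DKO-labelled over WT, both denervated (adjusted p = 0.979). Calcr spans chr6:3635720-3714713 on mm9 and overlaps the entries Mir653 and Mir489, and no other member overlaps another entry.

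Notch3, a receptor of satellite cells and mural cells, passed the test in WT muscle. It read 4.77 and 2.61 FPKM in DKO-labelled denervated muscle, 3.50 and 2.55 in denervated WT soleus, and 6.42 and 7.44 in innervated WT muscle. Every denervated library lay below both innervated ones, and the genotypes overlapped. The log2 change was -1.10 ± 0.306 (SE) for denervated over innervated WT, 2.15-fold lower (edgeR adjusted p = 0.0393). It was -0.75 ± 0.304 for DKO-labelled denervated over innervated WT (adjusted p = 0.105) and 0.36 ± 0.303 between the genotypes (adjusted p = 0.971). The WT call was lost without either innervated library or denervated WT replicate 2 (adjusted p = 0.134, 0.187 and 0.115), with library totals as the only scaling (adjusted p = 0.0766), and with limma at a pseudocount of 0.1 (adjusted p = 0.0506). Notch3 spans chr17:32257838-32303797 on mm9.

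Notch1, at chr2:26313422-26359342 on mm9, read 1.62 and 0.918 FPKM in DKO-labelled denervated muscle, 1.29 and 1.29 in denervated WT soleus, and 1.92 and 3.06 in innervated WT muscle. Here too the denervated libraries lay below both innervated ones, with the innervated pair far apart. The log2 change was -0.85 ± 0.329 (SE) for denervated over innervated WT, which did not pass (edgeR adjusted p = 0.0963), and 0.03 ± 0.328 between the genotypes (adjusted p = 0.998). Of the other receptors 0 of 2 passed in either of these comparisons: Notch4, the endothelial receptor, had a log2 change of -1.10 ± 0.376 in denervated over innervated WT muscle (adjusted p = 0.0692), and Notch2, found in many cell types, had 0.81 ± 0.342 (adjusted p = 0.117). Notch4 was lower in DKO-labelled denervated than in innervated WT muscle (-1.73 ± 0.384, adjusted p = 0.0186).

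Heyl and Hey1 are sister repressors induced by Notch, and no test compared their courses. Heyl read 1.8 and 1.10 FPKM in DKO-labelled denervated muscle, 1.58 and 1.18 in denervated WT soleus, and 2.83 and 2.92 in innervated WT muscle. The 4 denervated libraries were all lower than the innervated pair. Heyl was 1.95-fold lower in denervated than in innervated WT muscle (log2 -0.97 ± 0.287 SE, edgeR adjusted p = 0.0481). The same log2 difference was -0.86 ± 0.287 for DKO-labelled denervated over innervated WT muscle (adjusted p = 0.0628) and 0.11 ± 0.286 between the genotypes (adjusted p = 0.993). Between DKO-labelled denervated and innervated WT muscle Heyl was called in 9 of 16 alternatives, DESeq2 and limma among them. The WT call of Heyl lay close to the threshold and was lost without either innervated library or denervated WT replicate 2 (adjusted p = 0.182, 0.195 and 0.133), and with library totals as the only scaling (adjusted p = 0.109). Heyl spans chr4:122910799-122927113 on mm9.

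Hey1, at chr3:8663359-8667038 on mm9, read 2.71 and 1.87 FPKM in DKO-labelled denervated muscle, 2.82 and 5.18 in denervated WT soleus, and 3.31 and 3.90 in innervated WT muscle. Denervated WT replicate 2 was the highest library and replicate 1 lay below both innervated ones. Between denervated and innervated WT muscle the log2 change was 0.19 ± 0.350 (SE, edgeR adjusted p = 0.707), and without denervated WT replicate 2 it was -0.32 (adjusted p = 0.481). DKO-labelled libraries were below all others, with a log2 difference of -0.80 ± 0.352 from denervated WT (adjusted p = 0.838). Within the first run of consecutive sample numbers that difference was -0.05 and within the second -1.45, so it rested on the second. The ratio of Hey1 to Heyl on the FPKM scale, chosen after the values were seen, was 1.5 and 1.69 in DKO-labelled denervated, 1.78 and 4.39 in denervated WT and 1.17 and 1.34 in innervated WT muscle. Its highest value was in the library where Hey1 was highest.

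Markers of vessel cells fell beside Notch3 and Heyl. All 10 endothelial markers were lower in denervated than in innervated WT muscle, with a median log2 change of -1.12. Of these 9 passed (90.0%, beside 28.7% of all tested genes), among them the VEGF receptor Kdr (log2 -1.85 ± 0.214 SE, edgeR adjusted p = 0.00408). All 9 mural cell markers were lower too, with a median of -0.98. Of these 6 passed (66.7%), among them smooth muscle actin Acta2 (-1.46 ± 0.201, adjusted p = 0.0061) and Tagln (-1.01 ± 0.149, adjusted p = 0.00692). The median over all tested genes was 0.0022. The summed CPM (fragments over the library's TMM-scaled size) of the endothelial markers were 406 and 262 in DKO-labelled denervated, 380 and 319 in denervated WT, and 712 and 819 in innervated WT muscle. Those of the mural markers were 648 and 467 in DKO-labelled denervated, 624 and 419 in denervated WT, and 907 and 940 in innervated WT muscle. No endothelial or mural marker was called between the genotypes. Without innervated replicate 1 there were 3 endothelial and 0 mural calls, without innervated replicate 2 there were 0 and 0, and without denervated WT replicate 2 there were 4 and 3.

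Set against the mural sum, Notch3 CPM came to 7.94% and 6.11% in DKO-labelled denervated, 5.77% and 6.32% in denervated WT, and 6.88% and 7.63% in innervated WT muscle. Heyl CPM came to 1.78% and 1.53% of the mural sum in DKO-labelled denervated, 1.58% and 1.78% in denervated WT, and 1.85% and 1.82% in innervated WT muscle. Notch1 CPM came to 5.42% and 4.81% of the endothelial sum in DKO-labelled denervated, 4.44% and 5.33% in denervated WT, and 3.32% and 4.57% in innervated WT muscle. Pax7 CPM, of a gene that marks no vessel cell, came to 0.589% and 0.601% of the mural sum in DKO-labelled denervated, 0.395% and 0.554% in denervated WT, and 0.501% and 0.375% in innervated WT muscle. Of the endothelial sum it came to 0.94% and 1.07% in DKO-labelled denervated, 0.648% and 0.728% in denervated WT, and 0.638% and 0.43% in innervated WT muscle. Hey1 CPM came to 1.89% and 2.04% of the endothelial sum in DKO-labelled denervated, 2.09% and 4.62% in denervated WT, and 1.29% and 1.31% in innervated WT muscle. These shares were chosen after the values were seen and carry no test. On this scale Notch1 overlapped between denervated and innervated WT libraries, as did Pax7 over the mural sum. Hey1 was higher in denervated WT, as was Pax7 over the endothelial sum. With Abcc9 in the mural sum, the shares of Notch3 and Heyl were lower in denervated WT, by less than the fall of that sum itself. That sum leaned on Abcc9, which had 313.3 and 166.8 CPM in denervated WT and 339.5 and 343.1 in innervated WT libraries. Abcc9 itself was not called (log2 -0.51 ± 0.312 SE, edgeR adjusted p = 0.253). The median log2 change of the 9 mural markers was -0.98, beside -1.10 for Notch3 and -0.97 for Heyl. The lower shares may thus rest on Abcc9, and shares of a mural sum without it were not tested. The part of vessel cells in the change of these members was not tested.

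Tmem8c, the myomaker gene at chr2:26917156-26927681 on mm9, had 1570 and 811 fragments in DKO-labelled denervated muscle, 5390 and 1391 in denervated WT soleus, and 191 and 7 in innervated WT muscle. On the FPKM scale it had 28.5 and 15.5 in DKO-labelled denervated, 71.9 and 28.8 in denervated WT, and 4.67 and 0.227 in innervated WT libraries. All denervated libraries stood above both innervated ones, and replicates differed widely in every group. The exact Poisson 95% interval of the count of 7 was 2.81 to 14.4, far from the 165 to 220 of the other innervated library, so that pair differed by more than counting error. Tmem8c was 21.2-fold higher in denervated than in innervated WT muscle (log2 4.41 ± 1.09 SE, edgeR adjusted p = 0.0281). The estimate depended on which innervated library was kept, with a log2 change of 7.87 (adjusted p = 0.0341) without replicate 1 and 3.52 (adjusted p = 0.0728) without replicate 2.

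In DKO-labelled denervated muscle Tmem8c had a log2 change of 3.25 ± 1.04 (SE) against innervated WT muscle, which did not pass (edgeR adjusted p = 0.0563), although 10 of 17 alternatives called it, the looser filters and the fit of the 4 compared libraries alone among them. Against denervated WT muscle it had -1.16 ± 0.936 (adjusted p = 0.97). The genotypes were separate on the FPKM scale and overlapped on TMM-scaled CPM, where DKO-labelled libraries had 44.4 and 24.5 and denervated WT libraries 109.6 and 44.2. Tmem8c over Pax7 on the FPKM scale, chosen after the values were seen, was 46 and 34.6 in DKO-labelled denervated, 176 and 75.1 in denervated WT, and 5.81 and 0.362 in innervated WT muscle, so that the 3 groups were ordered with no overlap.

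Of 18 tested genes of myoblast fusion, 5 passed as higher and 2 as lower in denervated against innervated WT muscle. This was 38.9% of the list, beside 28.7% of all tested genes. The partner of myomaker, myomerger, is listed as Gm7325 (Mymx in RefSeq). It had 162 and 75 fragments in DKO-labelled denervated muscle, 1342 and 1392 in denervated WT soleus, and 23 and 0 in innervated WT muscle. On the FPKM scale it had 5.26 and 2.56 in DKO-labelled denervated, 32.2 and 51.7 in denervated WT, and 1.02 and 0 in innervated WT libraries. The 3 groups did not overlap on either scale, and like Tmem8c it was lowest in innervated replicate 2. Gm7325 had a log2 change of 6.33 ± 0.935 (SE) in denervated over innervated WT muscle (edgeR adjusted p = 0.00689). Between the genotypes it had -3.38 ± 0.757 (adjusted p = 0.372), and the fit with no filter on low genes called it. Cdc42, a small GTPase needed for fusion, was 2.26-fold higher (log2 1.18 ± 0.149, adjusted p = 0.00498) in denervated than in innervated WT muscle, and the junctional molecules Jam3 (-1.38 ± 0.213, adjusted p = 0.00777) and Jam2 (-1.18 ± 0.243, adjusted p = 0.0174) were lower. No fusion gene passed between the genotypes. The smallest p there was that of the integrin subunit Itga9 (log2 -1.25 ± 0.179, adjusted p = 0.14), which read 3.19 and 4.16 FPKM in DKO-labelled denervated, 9.47 and 9.73 in denervated WT and 6.97 and 6.07 in innervated WT muscle. DESeq2 and the fit with no filter called Itga9 lower.

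**Figure D3:**
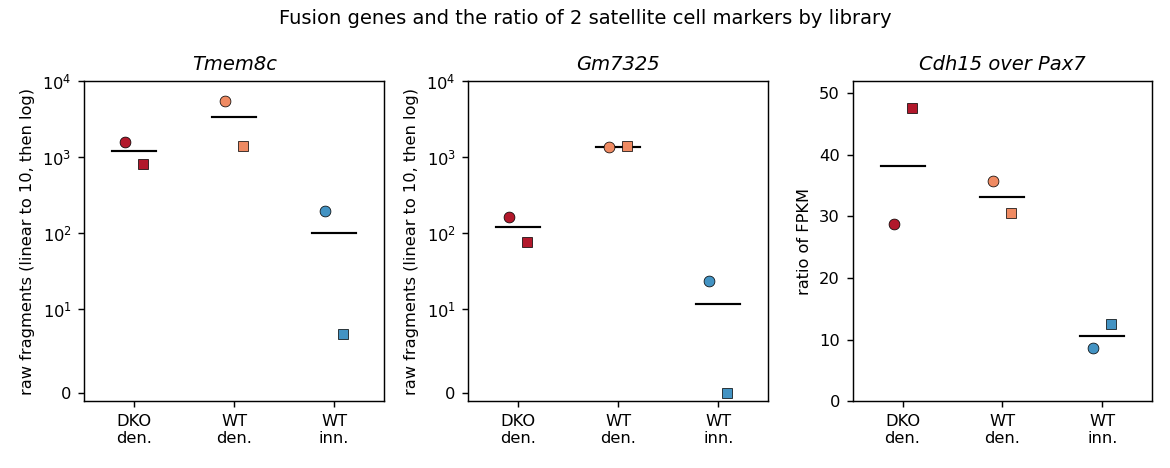
Raw fragments of Tmem8c and Gm7325 (vertical axes linear to 10 and logarithmic above) and the ratio of Cdh15 to Pax7 FPKM (linear axis from 0) in each library, with DKO-labelled denervated, WT denervated and WT innervated soleus from left to right; circles are replicate 1, squares replicate 2 and lines group means. Gm7325 stands at 1342 and 1392 fragments in denervated WT soleus, and the Cdh15 to Pax7 ratio is 8.71 and 12.5 in innervated WT muscle, below every denervated library.

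The other satellite cell and myoblast genes went both ways. Of 22 tested, 5 passed as higher and 3 as lower in denervated against innervated WT muscle (36.4%, beside 28.7% of all tested genes). The median log2 change of the list was 0.35. The myogenic factor Myod1 read 113.5 and 120.3 FPKM in DKO-labelled denervated, 55.2 and 127.4 in denervated WT, and 7.71 and 4.38 in innervated WT muscle. It was 16.0-fold higher in denervated than in innervated WT muscle (log2 4.0 ± 0.478 SE, edgeR adjusted p = 0.00433). Whether satellite cells, myoblasts or fibres made this Myod1 RNA was not tested. Met, the receptor of hepatocyte growth factor, rose 3.81-fold (1.93 ± 0.206, adjusted p = 0.00345), and the adhesion molecule Ncam1, which denervated fibres also make, rose 8.64-fold (3.11 ± 0.415, adjusted p = 0.00571). Cav1, a caveolar protein of fibres and endothelium, fell 2.33-fold (-1.22 ± 0.176, adjusted p = 0.00654). No gene of this list passed between the genotypes.

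Within the rest of the Notch pathway some genes passed in each direction. Of 4 tested ligands Dll4, which endothelium makes, passed, with 1.71 and 1.74 FPKM in DKO-labelled denervated, 1.72 and 2.31 in denervated WT and 4.21 and 4.32 in innervated WT muscle. Its log2 change was -1.0 ± 0.218 (SE) in denervated over innervated WT muscle (edgeR adjusted p = 0.02). Of 28 tested genes of processing and regulation 21.4% passed, below the 28.7% of all tested genes. In this list 2 passed as higher, the ubiquitin ligases Mib1 (1.04 ± 0.189, adjusted p = 0.0119) and Neurl1a (0.94 ± 0.176, adjusted p = 0.0129), which act on ligands. Another 4 passed as lower, among them the glycosyltransferases Mfng (-1.30 ± 0.311, adjusted p = 0.0258) and Rfng (-0.85 ± 0.221, adjusted p = 0.0328), which modify the receptors.

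The list of other targets had 5 tested genes, of which 40.0% passed, beside 28.7% of all tested genes. Nrarp, a feedback inhibitor of Notch, passed as lower and Hes6 as higher. Hes6 was listed with the Hes family, but it is known as a promoter of myogenic differentiation that opposes Hes1 and not as a usual target of Notch. Nrarp read 1.81 and 1.34 FPKM in DKO-labelled denervated, 1.86 and 1.25 in denervated WT and 6.76 and 4.89 in innervated WT muscle, a log2 change of -1.87 ± 0.311 (SE) for denervated over innervated WT (edgeR adjusted p = 0.00944). Like Heyl and Notch3, it was lower in all 4 denervated libraries. Hes6 read 87.4 and 80.5 FPKM in DKO-labelled denervated, 163.6 and 161.1 in denervated WT and 15.2 and 17.1 in innervated WT muscle. Hes6 was 10.8-fold higher in denervated than in innervated WT muscle (log2 3.43 ± 0.154, adjusted p = 0.000598). Between the genotypes its log2 difference was -0.90 ± 0.141 (adjusted p = 0.177), and DESeq2 called it. Hes1, the general target, read 10.9 and 12.9 FPKM in DKO-labelled denervated, 15.2 and 14.6 in denervated WT and 27.6 and 19.2 in innervated WT muscle. Its log2 change was -0.61 ± 0.221 (adjusted p = 0.0794) for denervated over innervated WT and -0.32 ± 0.221 (adjusted p = 0.968) between the genotypes, and it was lower in DKO-labelled denervated than in innervated WT muscle (-0.93 ± 0.223, adjusted p = 0.0233).

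**Figure D4:**
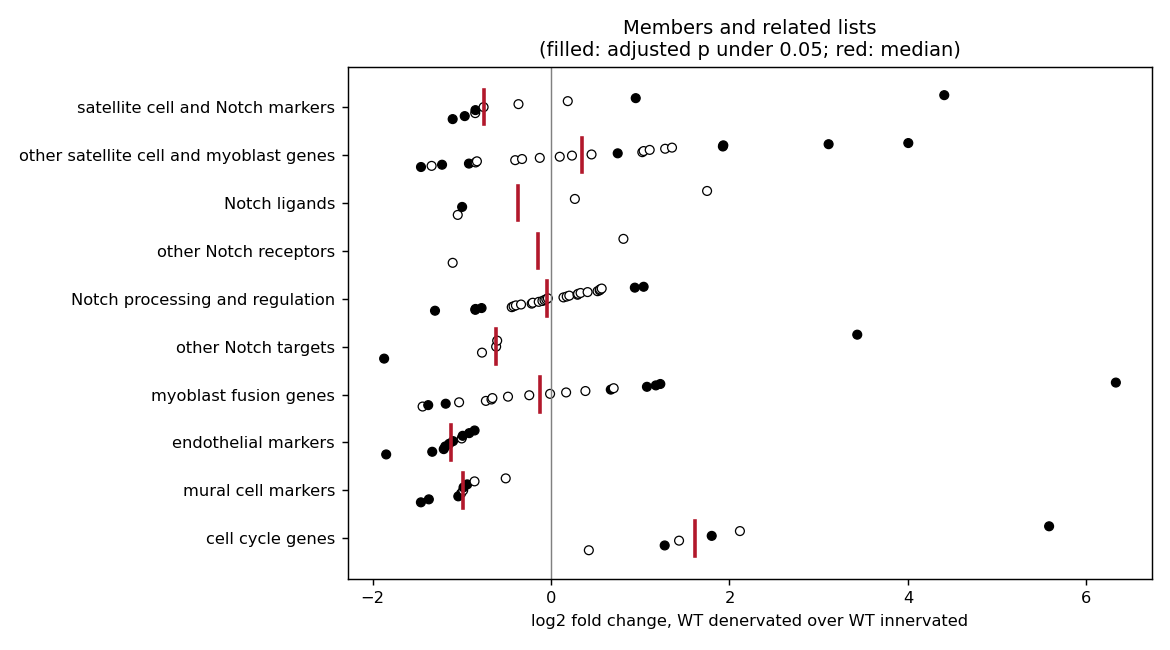
Log2 fold change for WT denervated over WT innervated muscle (horizontal axis) of the tested members (top) and of the tested genes of related lists, each point a gene; filled points passed an adjusted p of 0.05 and red lines are list medians. The members spread from -1.10 (Notch3) to 4.41 (Tmem8c), while 9 of 10 endothelial markers are filled and left of 0.

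Markers of the remaining cell types were read beside the members. All 8 fibro-adipogenic progenitor markers were lower in denervated than in innervated WT muscle, with a median log2 change of -0.87. Of these 2 passed the test, Dpt (log2 -1.52 ± 0.443 SE, edgeR adjusted p = 0.046) and Dcn (-0.56 ± 0.165, adjusted p = 0.0469). Of 8 macrophage markers 6 had a positive and 2 a negative log2 change, with a median of 0.325. Cd68 alone passed (1.58 ± 0.281, adjusted p = 0.0111), which was 12.5% of the list. Of 6 tested Schwann cell markers 66.7% passed, the neurotrophin receptor Ngfr as higher (2.12 ± 0.212, adjusted p = 0.00304) and 3 as lower. All 7 tested soleus fibre markers were lower, with a median of -1.22, and 5 passed (71.4%). Of all tested genes 28.7% passed. The passing shares of the fibro-adipogenic progenitor and macrophage lists lay below this, and those of the Schwann cell and soleus fibre lists above it. None of these lists had a call between the genotypes, and their part in the members' changes was not tested. Without innervated WT replicate 1 or 2 the calls among all tested genes dropped to 468 and 202, so that most calls between denervated and innervated WT muscle needed both innervated libraries. Without denervated WT replicate 1 they numbered 5357, against 3512 with all libraries. Of the list genes named above, Gm7325 and Hes6 kept their calls in all 17 alternatives. Kdr, Met, Myod1, Ncam1, Ngfr and Cd68 lost theirs only without innervated replicate 2. Acta2, Tagln, Cav1, Cdc42, Jam2, Jam3, Dll4, Nrarp, Mib1 and Neurl1a lost theirs without either innervated replicate, and Mfng also without denervated WT replicate 2. Calls of Rfng, Dpt and Dcn held in 10, 8 and 7 of 17 alternatives.

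DKO-labelled denervated and innervated WT muscle differ in both genotype and nerve and share libraries with the other comparisons. There 2 of 9 tested members passed, Cdh15 higher and Chodl lower, against 31.4% of all tested genes (15.2% higher and 16.2% lower). For Heyl, Notch1 and Notch3 the log2 differences were -0.86, -0.82 and -0.75 (edgeR adjusted p = 0.0628, 0.104 and 0.105), beside -0.97, -0.85 and -1.10 for denervated over innervated WT muscle. Hey1 had -0.61 (adjusted p = 0.226), Pax7 -0.29 (adjusted p = 0.508) and Vcam1 -0.30 (adjusted p = 0.657).

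Genes with the course most like a member were read from Pearson's r over the 6 libraries on log2 TMM-scaled CPM, a description in which all genes share the same libraries and groups. The highest r was 0.990 with Slc1a3 for Pax7, 0.997 with Tubb2a for Cdh15, 0.999 with Trappc8 for Chodl and 0.998 with Emp3 for Vcam1. It was 0.979 with Amotl2 for Hey1, 0.993 with Caskin2 for Notch1, 0.997 with Tspan8 for Notch3 and 0.991 with Rab31 for Tmem8c. Also near the top were Zfp563 for Pax7 (0.985), Blvra for Cdh15 (0.996), Fam174a for Chodl (0.998), Ctsf for Vcam1 (0.995), Pkn3 for Heyl (0.996), Kctd10 for Hey1 (0.978), Sox13 for Notch1 (0.991), S1pr3 for Notch3 (0.995) and Mterfd2 for Tmem8c (0.988). Among the members themselves Heyl and Notch3 were most alike at 0.98 and Chodl and Tmem8c least alike at -0.89, whereas Heyl and Hey1 had 0.19.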

How the data were processed

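RNA was extracted with a column kit, treated with DNase and sequenced as polyadenylated RNA, per the labels' protocols. The submitters' processing notes list build mm9 and, among the tools, TopHat2 2.0.3 with Bowtie2 2.0.0.7, Cuffdiff 2.0.2, CASAVA 1.8.2 and Trim Galore 0.2.1. The annotation, the strand setting and each tool's role are not stated there. Per the file headers, the authors deposited FPKM, a signal of externally scaled fragments and raw fragments, which are estimated counts (88.4% to 89.0% of them whole numbers to 1e-06). The deposited signal was the raw fragments times 1 factor per library (0.6643 to 1.5641). How fragments were split among overlapping or similar genes is not stated. Each table lists every gene 3 times, and copies were dropped, leaving 21805 entries of 21572 symbols, with entries of the same symbol summed. Gene lengths equalled RefSeq's more often if starts count from 0 (6224 of 18865 genes, against 427), so starts are given 1-based.

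The raw fragments, rounded to whole numbers, were tested in R 4.3.3 by the quasi-likelihood method of edgeR 4.0.16, with TMM scaling, 3 group means in 1 fit of all 6 libraries and a mean FPKM of at least 0.5 (12247 genes). Genes were called at a two-sided Benjamini-Hochberg adjusted p under 0.05, adjusted over all tested genes. Each gene had 3 residual degrees of freedom, and the fit had a common coefficient of biological variation of 0.222. It was also run on counts simulated from its own dispersions, which cannot show how it handles the spread of real replicates. An SE is the size of the log2 change over the square root of its F value. Alternatives were DESeq2 1.42.0, limma 3.58.1 on log2(FPKM + pseudocount), other scalings and filters, a block by runs of consecutive sample numbers, and leaving out each library. Replicates carry no number in the labels and were numbered by accession, and the runs do not pair the samples by design.

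The members and gene lists were chosen with earlier results of these data known. All members are named; of each list up to 4 called genes of smallest p are named, or up to 2 where none was called, besides markers a result is set beside; and for each tested member the 2 genes of highest r are named. Some genes that this rule selects are left out of the text.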

Additional observations from a re-analysis of the deposited data

How the results depend on the processing

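Across the alternatives 0 members were called between DKO-labelled and WT denervated muscle. For denervated against innervated WT muscle the 5 called members became 2 with library totals as the only scaling, and 0 to 6 when a library was left out. For DKO-labelled denervated against innervated WT muscle the 2 called members became 4 with limma at a pseudocount of 0.5 or 1, with the 4 compared libraries alone, and with a replicate block by runs of sample numbers, and 1 to 4 when a library was left out. Under the replicate block the other 2 counts were 5 and 0, but the runs share only their numbering. Scaling by library totals shifted the median log2 change of all genes by 0.27 for denervated against innervated WT, where all calls split into 3331 higher and 1144 lower, beside 1759 and 1753 with TMM. For DKO-labelled denervated against innervated WT muscle the shift was 0.32, and calls split into 3728 higher and 1239 lower, beside 1859 and 1984. Between the genotypes the 5 calls among all genes became 182 with DESeq2, 27 to 33 with limma and 60 with no filter, none of them a member. Signs turned for differences that had not passed. With a library left out, the log2 change for denervated over innervated WT muscle ran from -1.22 to 0.15 for Vcam1 and from -0.32 to 0.56 for Hey1. The difference of DKO-labelled from WT denervated muscle then ran from -0.22 to 0.10 for Chodl, -0.45 to 0.92 for Vcam1, -0.28 to 0.41 for Heyl, -0.43 to 0.38 for Notch1 and -0.13 to 0.72 for Notch3. Limma at pseudocounts of 0.5, 0.1 and 1 gave it as -0.044, -0.069 and -0.029 for Notch1. For DKO-labelled denervated over innervated WT muscle, library totals gave 0.032 for Pax7 and 0.023 for Vcam1. The cause was not tested. Few fragments limit Calcr in denervated WT replicate 2 and Tmem8c in innervated WT replicate 2, and each group has 2 libraries.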

Other observations

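Cell cycle genes, which mark dividing cells of any type, were read beside the satellite cell genes. Of 6 tested, 3 rose and 0 fell in denervated against innervated WT muscle, with a median log2 change of 1.62. Rrm2, a subunit of ribonucleotide reductase, read 9.72 and 18.7 FPKM in DKO-labelled denervated, 38.1 and 70.1 in denervated WT soleus, and 1.36 and 0.920 in innervated WT muscle. Its log2 change was 5.58 ± 0.506 (SE) for denervated over innervated WT (edgeR adjusted p = 0.00247) and -1.96 ± 0.42 for DKO-labelled over WT, both denervated (adjusted p = 0.341). The DNA replication factor Mcm5 (1.8 ± 0.448, adjusted p = 0.0285) and the mitotic kinase Aurka (1.27 ± 0.363, adjusted p = 0.0429) also rose in denervated against innervated WT muscle. The Rrm2 call held in all 17 alternatives and those of Mcm5 and Aurka in 11 and 9 of 16, and DESeq2 called Rrm2 lower in DKO-labelled than in WT denervated muscle. The proliferation marker Mki67 had 483 and 192 fragments in DKO-labelled denervated, 720 and 83 in denervated WT soleus, and 52 and 46 in innervated WT muscle, so that its denervated WT pair lay far apart. Cdk1, Ccnb1 and Bub1 had 183, 118 and 76 fragments in denervated WT replicate 1 and 20, 11 and 9 in replicate 2. Rrm2 had 5576 and 6622 fragments in the same 2 libraries, and so did not follow these genes. Whether its rise came from dividing cells was not tested.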
